A study of Mus musculus with 12 samples.

Results

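The 7 genes described here encode the core of the major histocompatibility complex (MHC) class II pathway, and all were chosen by name among the 43432 genes of the count table. They are the class II chains *H2-Aa*, *H2-Ab1* and *H2-Eb1*, the invariant chain *Cd74*, the peptide loading factors *H2-DMa* and *H2-DMb1*, and the transcriptional activator *Ciita*. RNA was sequenced from sciatic nerves of mice at day 30, with 4 libraries in each of 3 groups and 1 nerve of 1 mouse per library. WT control mice (*Mtmr2* wt/wt) and *Mtmr2* KO mice (*Mtmr2* -/-) carried the treatment label none. The authors describe the *Mtmr2* KO mice of the niacin comparison as vehicle treated. The third group were *Mtmr2* KO mice injected intraperitoneally with niacin (120 mg/kg) between days 10 and 21. They were then gavaged until day 30 with a slow-release form, at a separate dose not reported here. *Mtmr2* encodes a phospholipid phosphatase whose loss in humans causes Charcot-Marie-Tooth neuropathy type 4B1, and niacin, vitamin B3, was given as a candidate treatment. The mice had a 129/SvPas background, each group was said to hold 3 males and 1 female without a sex for single samples, and neither the labels nor the methods read here name the deleted part of *Mtmr2*.

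MHC class II molecules are pairs of an alpha and a beta chain that carry peptides from ingested proteins to the cell surface, where CD4+ T cells read them. The invariant chain CD74 fills the peptide groove during transport, cathepsins cut it down in endosomes, and the DM heterodimer exchanges its last fragment for a peptide. CIITA does not bind DNA itself and switches on these genes together through factors bound at shared promoter boxes. In peripheral nerve, resident macrophages are the main cells known to carry class II, and Schwann cells can acquire it under inflammation.

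The promoters of *H2-Aa*, the alpha chain of the I-A molecule, and *H2-Eb1*, the beta chain of the I-E molecule, are shown because the RNA of these genes held an almost fixed ratio in all 12 libraries. The stretches are the 150 bases just before the RefSeq start site on GRCm38.p6, read 5′ to 3′ on the strand of the gene. They lie at chr17:34287824-34287973 on the minus strand for *H2-Aa* and at chr17:34305717-34305866 on the plus strand for *H2-Eb1*. Capitals mark GNAAC, letters within the X1 box bound by the RFX complex, and ATTGG, the reverse complement of the CCAAT letters of the Y box bound by NF-Y.
H2-Aa: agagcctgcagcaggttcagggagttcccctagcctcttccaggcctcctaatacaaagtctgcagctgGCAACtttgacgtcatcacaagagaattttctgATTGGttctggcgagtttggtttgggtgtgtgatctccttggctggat
H2-Eb1: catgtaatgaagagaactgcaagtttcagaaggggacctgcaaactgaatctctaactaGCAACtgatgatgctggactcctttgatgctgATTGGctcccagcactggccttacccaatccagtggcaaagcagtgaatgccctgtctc

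The marked letters stand 28 bases apart in *H2-Aa* and 27 bases apart in *H2-Eb1*. Of the 7 genes, 4 had windows of 300 bases (250 before to 50 after the start) in the RefSeq table, with 5 windows in all. The pair GNAAC, 20 to 35 bases, ATTGG on the strand of the gene was chosen after these sequences had been read. It was found in the windows of 3 genes, *H2-Aa*, *H2-Eb1* and *H2-DMb1*, and in 1.33% of all 32851 windows of the table. In *H2-DMb1* it ran from 94 to 57 bases before the RefSeq start, with a gap of 28 bases. Neither window of *H2-DMa* held it. CCAAT on either strand was in the windows of *H2-Aa*, *H2-Eb1* and *H2-DMb1*, in 1 of the 2 windows of *H2-DMa*, and in 37.4% of all windows. AGCAAC on either strand was in the window of *H2-Eb1* alone among these genes and in 14.8% of all windows. A match describes letters and is not evidence of binding, and the sequence is the reference and not that of these mice. The ratio of *Cd74* to *H2-Ab1* was about as steady, and neither of these genes had a window. Whether the letters bear on any ratio was not tested.

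Totals were between 20763951 and 33191106 counts per library. All 7 genes passed the filter on low counts, as did 17257 genes in all, and the lowest count of a member in any library was 70, for *Ciita*. Levels are in CPM, the count of a gene relative to the total of its library, scaled by the trimmed mean of M values (TMM), and libraries are named by their replicate numbers, 4497 to 4500 for WT control, 4501 to 4504 for *Mtmr2* KO and 4505 to 4508 for niacin. *Mtmr2* RNA was at 128 to 161 CPM in WT control and at 66.8 to 84.7 CPM in 7 of the 8 libraries labelled *Mtmr2* -/-. The library labelled *Mtmr2* KO replicate 4503 had 143 CPM, within the range of WT control, so the log2 changes that involve the *Mtmr2* KO group are also given without it for the genes named below. A whole-library shift of RNA from genes of low GC content (at most 44.89%) relative to genes of high GC content (at least 54.26%), as a median log2 difference from WT control, was 0.82 in library 4502 and 0.32 to 0.61 in the niacin libraries, with 4508 the highest of these. It was between -0.05 and 0.08 in the other 7 libraries.

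*H2-Aa* (ENSMUSG00000036594, GRCm38 chromosome 17, 34282744 to 34287823, minus strand) was at 87.7, 103, 124.5 and 126 CPM in WT control, at 80.4, 183, 30.1 and 128 CPM in *Mtmr2* KO, and at 131, 155, 151 and 200.01 CPM with niacin, in order of replicate number. The 4 niacin libraries lay above all 4 WT control libraries, while the *Mtmr2* KO libraries spread from the lowest to nearly the highest value of the 12. Group means were 110.2 ± 18.4, 105 ± 65.5 and 159 ± 29.2 CPM (SD, n = 4).

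*H2-Ab1*, the beta chain that pairs with the *H2-Aa* product (ENSMUSG00000073421, chromosome 17, 34257689 to 34269419, plus strand), was at 85.7, 101, 127 and 108 CPM in WT control. It was at 74.0, 45.1, 28.5 and 111 CPM in *Mtmr2* KO and at 69.1, 99.0, 77.2 and 60.4 CPM with niacin. The values of all 3 groups overlapped. Library 4502, the second highest of the 12 for *H2-Aa*, was the second lowest for *H2-Ab1*. Group means were 105 ± 17.2, 64.6 ± 36.0 and 76.4 ± 16.6 CPM (SD, n = 4).

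*H2-Eb1* (ENSMUSG00000060586, chromosome 17, 34305867 to 34316674, plus strand) was at 89.1, 107, 137.5 and 130.2 CPM in WT control, at 95.3, 166, 33.3 and 138 CPM in *Mtmr2* KO, and at 131, 164, 149 and 182 CPM with niacin. The order of the libraries was close to that of *H2-Aa*, with 4503 lowest and 4508 and 4502 highest. Group means were 116 ± 22.1, 108 ± 57.7 and 157 ± 21.9 CPM (SD, n = 4). *H2-Ea-ps*, which stands for the alpha chain of the same I-E molecule and is annotated as a pseudogene in the reference, had 17 counts over the 12 libraries. *Gm20513* overlaps *H2-Eb1* on the other strand, and use of strand in the counting is not stated, so their reads cannot be told apart.

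*Cd74*, which encodes the invariant chain (ENSMUSG00000024610, chromosome 18, 60803848 to 60812652, plus strand), was at 149, 180.4, 219 and 183 CPM in WT control, at 155, 72.7, 56.6 and 199.5 CPM in *Mtmr2* KO, and at 117, 165, 125 and 96.8 CPM with niacin. Libraries 4503, 4502 and 4508 were the lowest, and the groups overlapped. Group means were 183 ± 28.3, 121 ± 67.8 and 126 ± 28.8 CPM (SD, n = 4). *Cd74* overlaps the microRNA gene *Mir5107* on the same strand.

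*H2-DMa*, the alpha chain of the loading factor DM (ENSMUSG00000037649, chromosome 17, 34119541 to 34139101, plus strand), was at 96.0, 88.4, 107 and 96.9 CPM in WT control. It was at 96.95, 55.7, 87.6 and 109.9 CPM in *Mtmr2* KO and at 71.1, 78.6, 58.1 and 35.6 CPM with niacin. All 4 niacin libraries lay below all 4 WT control libraries, and library 4502 was the only one of *Mtmr2* KO inside the niacin range. Group means were 97.2 ± 7.77, 87.5 ± 23.1 and 60.8 ± 18.9 CPM (SD, n = 4). The gene overlaps *Brd2*, *Gm20493* and *CR974462.4* on the other strand and *CR974462.3* on its own, so part of its reads could be shared.

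*H2-DMb1*, the beta chain of DM (ENSMUSG00000079547, chromosome 17, 34153072 to 34160230, plus strand), was at 108, 97.5, 109 and 114 CPM in WT control, at 96.2, 76.0, 82.5 and 115 CPM in *Mtmr2* KO, and at 124, 114, 100.4 and 78.8 CPM with niacin. It was the steadiest of the 7 genes, with a standard deviation of log2 CPM of 0.23 over the 12 libraries against 0.45 to 0.72 for the others. Of its 50-base words, 27.2% also occur in *H2-DMb2*, so counts of these neighbours could be split between them. *H2-DMb2* was at 0.801 to 3.09 CPM.

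*Ciita* (ENSMUSG00000022504, chromosome 16, 10480059 to 10528418, plus strand) was at 5.56, 6.61, 6.61 and 4.13 CPM in WT control, at 6.48, 3.497, 2.24 and 5.24 CPM in *Mtmr2* KO, and at 4.65, 6.37, 5.48 and 4.38 CPM with niacin. Library 4503 was again the lowest and 4502 the second lowest, and the groups overlapped. Group means were 5.73 ± 1.17, 4.37 ± 1.87 and 5.22 ± 0.900 CPM (SD, n = 4). *Dexi* overlaps *Ciita* on the other strand.

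**Figure D1:**
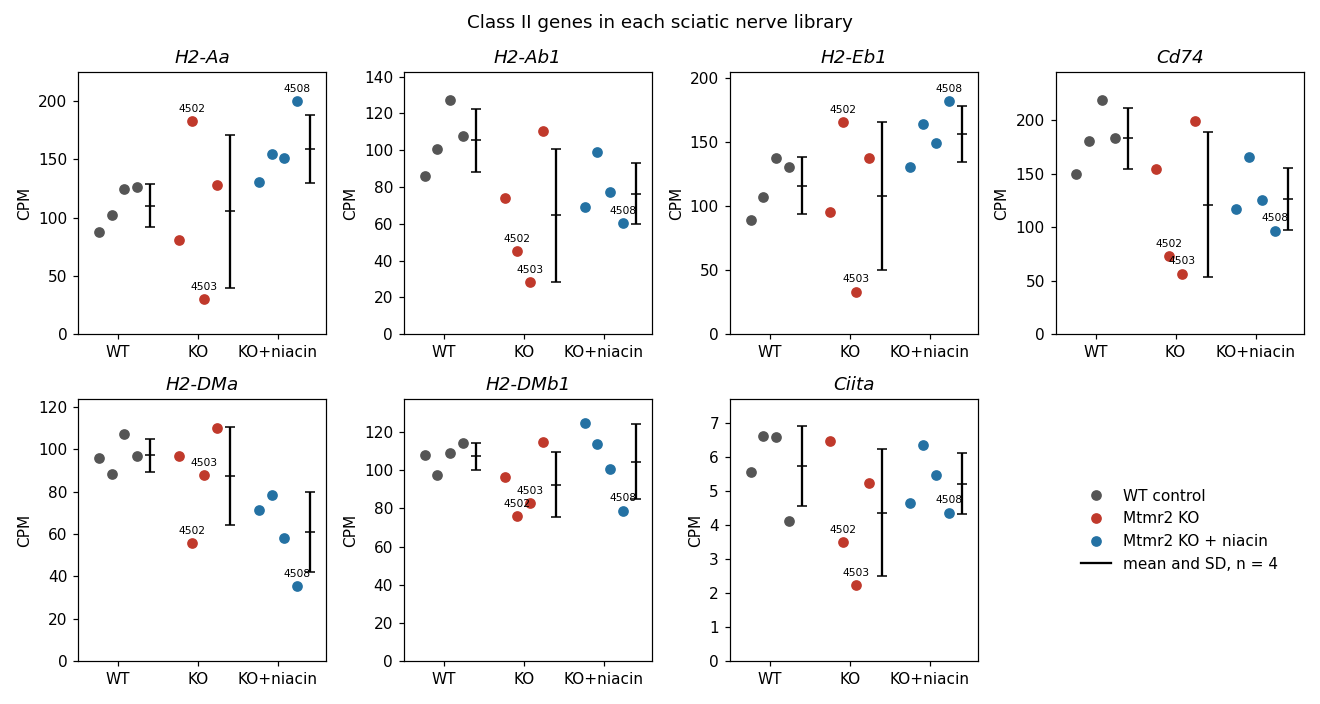
CPM of the 7 class II genes in each library, with 1 panel per gene, axes starting at 0, points coloured by group and in order of replicate number, and bars for the mean and SD of 4 libraries. The *Mtmr2* KO group is the widest for 6 of the 7 genes, replicates 4502, 4503 and 4508 are marked, and niacin lies wholly above WT control for *H2-Aa* (131 to 200.01 against 87.7 to 126 CPM) and wholly below it for *H2-DMa* (35.6 to 78.6 against 88.4 to 107 CPM).

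The chains and *Cd74* were most variable between libraries of *Mtmr2* KO. In WT control the standard deviation of log2 CPM was 0.10 to 0.32 across the 7 genes, with a median of 0.24 against 0.16 over all 17257 tested genes. In *Mtmr2* KO the median of the 7 genes was 0.85 against 0.40 over all tested genes, and *H2-Aa* and *H2-Eb1* reached 1.13 and 1.03. With niacin it was 0.29 against 0.22. Among the *Mtmr2* KO libraries 4502 was the highest and 4503 the lowest for *H2-Aa*, while for *Cd74* they were the 2 lowest.

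Per kilobase of exon in WT control, *Cd74* had the highest level of the 7 genes, at 109 ± 16.9 CPM per kb (SD, n = 4). It was followed by *H2-DMb1* at 63.7 ± 4.17, *H2-Eb1* at 59.7 ± 11.4, *H2-Ab1* at 41.0 ± 6.70, *H2-Aa* at 29.0 ± 4.85 and *H2-DMa* at 28.2 ± 2.25 CPM per kb. The gaps between *H2-DMb1* and *H2-Eb1* and between *H2-Aa* and *H2-DMa* were smaller than the spread between libraries. *Ciita* was far lower, at 0.601 ± 0.123 CPM per kb. Among all tested genes, *Cd74* stood at the 98.25th percentile of this level in WT control, the other chains and loading factors at the 90.78th to 96.42th, and *Ciita* at the 20.19th. The order depends on the length used: per kilobase of the longest transcript *H2-Ab1* rose to second place with 86.9 ± 14.2 CPM per kb, behind *Cd74* with 130 ± 20.1. With niacin the level per kilobase of exon was highest for *H2-Eb1*, at 80.6 ± 11.3, beside 75.04 ± 17.2 CPM per kb for *Cd74*, a gap within the spread.

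**Figure D2:**
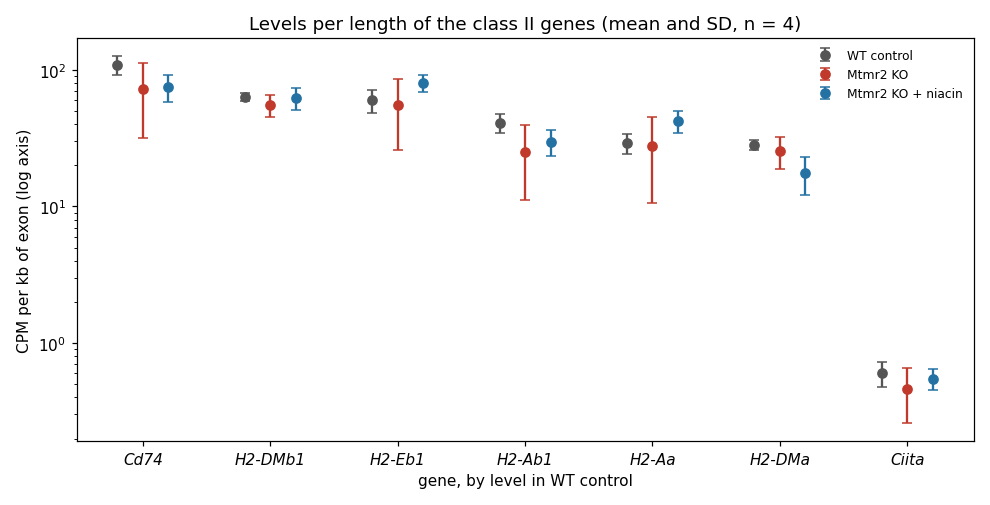
CPM per kilobase of exon (log axis) of the 7 class II genes, ordered by their level in WT control, as mean and SD of 4 libraries per group. *Cd74* leads at 109 CPM per kb in WT control and *Ciita* is lowest at 0.601, while the chains and loading factors lie between 28.2 and 63.7.

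The comparison of *Mtmr2* KO with WT control asks what loss of *Mtmr2* changes in the nerve. The fitted level of all 7 genes was lower in *Mtmr2* KO, as it was for 46% of all tested genes, and none of the 7 passed the test. The fitted log2 change was -0.71 (SE 0.32) for *H2-Ab1* and -0.60 (SE 0.32) for *Cd74*, with edgeR adjusted p = 0.273 and 0.359. It was -0.07 (SE 0.37) for *H2-Aa*, -0.10 (SE 0.34) for *H2-Eb1*, -0.15 (SE 0.23) for *H2-DMa*, -0.21 (SE 0.16) for *H2-DMb1* and -0.39 (SE 0.28) for *Ciita*. Adjusted p was 0.495 or more for these 5 genes. Of all tested genes edgeR called 0.267%, with 8 higher and 38 lower. The groups overlapped for all 7 genes, while they did not overlap for 9.32% of all tested genes. Before adjustment *H2-Ab1* alone was under 0.05, against 17.2% of all tested genes in either direction and 7.9% of them lower. DESeq2 also called none of the members, on the 2 groups (2.39% of all genes called) or over 12 libraries (3.71%), nor did limma-voom (0.626%). Exact permutation tests over the 70 ways to draw 4 of 8 libraries, two-sided, gave p = 0.114 to 0.8 for the 7 genes. Without replicate 4503 the log2 changes were -0.46 for *H2-Ab1*, -0.36 for *Cd74*, -0.15 for *H2-DMa*, -0.16 for *H2-DMb1* and -0.17 for *Ciita*, and *H2-Aa* and *H2-Eb1* turned to 0.24 and 0.19. Without replicate 4504 *H2-Ab1* was at -1.10 (edgeR adjusted p = 0.0686) and *Cd74* at -0.95 (edgeR adjusted p = 0.122). Without replicates 4502, 4503 and 4508 together, *H2-Ab1* was at -0.19 and *Cd74* at -0.05. In whole nerve, fewer cells that carry class II and less class II RNA per cell cannot be told apart.

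The comparison of niacin with *Mtmr2* KO asks what the treatment changes in mutant nerves. It shares its *Mtmr2* KO libraries with the comparison above. The fitted level was higher with niacin for 6 of the 7 genes, against 45.9% of all tested genes, and lower for *H2-DMa*, and none passed the test. The largest upward log2 differences among the 7 were 0.60 (SE 0.38) for *H2-Aa* and 0.54 (SE 0.34) for *H2-Eb1*, with edgeR adjusted p = 0.394 and 0.404. *H2-Ab1* was at 0.24 (SE 0.32), *Cd74* at 0.06 (SE 0.32), *H2-DMb1* at 0.18 (SE 0.16) and *Ciita* at 0.26 (SE 0.29), with adjusted p of 0.565 or more. *H2-DMa* was at -0.53 (SE 0.23) with unadjusted p = 0.0404 and edgeR adjusted p = 0.227, and was the only member under 0.05 unadjusted, against 20.1% of all tested genes in either direction and 12.1% of them lower. edgeR called 1.43% of all tested genes, and groups did not overlap for 7.01% of them and for 0 of the 7. By exact permutation tests, two-sided, p was 0.171 to 0.571. DESeq2 called 0 of the 7 on the 2 groups (2.56% of all genes called) and over 12 libraries (6.22%). By contrast limma-voom with sample weights called *H2-DMa* alone, at -0.71 with adjusted p = 0.0395, in a fit that called 11.6% of all tested genes. Without *Mtmr2* KO replicate 4502 edgeR called *H2-DMa* as well, at -0.70 with adjusted p = 0.0308 (23.6% of all tested genes called), and without 4502, 4503 and 4508 together at -0.59 with adjusted p = 0.0288 (9.81% called). Without niacin replicate 4508, the lowest for *H2-DMa*, its difference was -0.34 with edgeR adjusted p = 0.407. Without 4502 *H2-Aa* was at 0.98 with edgeR adjusted p = 0.0564. Without 4503 alone the differences were 0.29 for *H2-Aa*, 0.24 for *H2-Eb1*, -0.52 for *H2-DMa*, 0.13 for *H2-DMb1* and 0.04 for *Ciita*, while *H2-Ab1* and *Cd74* turned to -0.0022 and -0.18. Without the 3 libraries *Cd74* turned from 0.06 to -0.40 and *H2-Ab1* from 0.24 to -0.19.

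**Figure D3:**
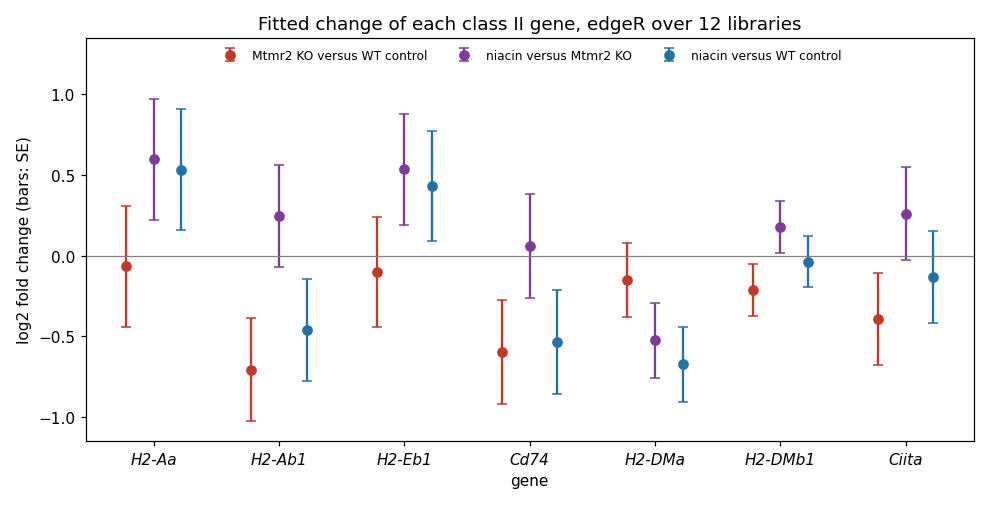
Fitted log2 fold change of each class II gene in the 3 comparisons (points) with its standard error (bars), from 1 edgeR model over 12 libraries. *H2-Aa* and *H2-Eb1* lie above 0 in both comparisons of niacin (0.43 to 0.60), *H2-DMa* lies below 0 in both (-0.53 and -0.68), and no gene has an adjusted p under 0.05.

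The comparison of niacin-treated *Mtmr2* KO with WT control asks how far treated mutant nerves stand from WT nerves, and shares the niacin and WT control libraries with the comparisons above. *H2-Aa* and *H2-Eb1* had higher means with niacin, at log2 differences of 0.53 (SE 0.38) and 0.43 (SE 0.34). *H2-Ab1*, *Cd74* and *H2-DMa* had lower means, at -0.46 (SE 0.32), -0.54 (SE 0.32) and -0.68 (SE 0.23). *H2-DMb1* at -0.04 (SE 0.16) and *Ciita* at -0.13 (SE 0.28) were nearest to 0. The edgeR model over all 12 libraries called none of the 7 (adjusted p = 0.127 for *H2-DMa*, 0.301 or more for the others) and 0% of all 17257 tested genes. Before adjustment *H2-DMa* alone of the 7 was under 0.05, against 24.7% of all tested genes in either direction and 14.6% of them lower. Groups did not overlap for *H2-Aa*, higher with niacin, and *H2-DMa*, lower, which is 2 of 7 against 31.4% of all tested genes (14.9% higher and 16.6% lower). Exact permutation tests, two-sided, gave p = 0.0286 for both, the smallest the design allows, and 0.0571 to 0.8 for the other 5. These are 2 of the 21 such tests computed over the 7 genes and 3 comparisons, without adjustment.

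The calls in this comparison differed with the libraries in the model and with the tool. With only the niacin and WT control libraries, DESeq2 called 5 of the 7 genes: *H2-Aa* at 0.51 (SE 0.15, adjusted p = 0.00286) and *H2-Eb1* at 0.41 (SE 0.15, adjusted p = 0.0168) higher, and *H2-Ab1* at -0.48 (SE 0.17, adjusted p = 0.0150), *Cd74* at -0.55 (SE 0.17, adjusted p = 0.00491) and *H2-DMa* at -0.69 (SE 0.20, adjusted p = 0.00316) lower. The same fit called 36.9% of all genes with an adjusted p, 16.6% higher and 20.4% lower. edgeR on these 8 libraries also called 5 of the 7, beside 33.9% of all tested genes. limma-voom over 12 libraries called *Cd74* and *H2-DMa*, beside 42.4% of all tested genes, and DESeq2 over 12 libraries called none, beside 7% (1057 of 15100 genes). Without replicate 4502, which is in neither group compared, edgeR called *H2-DMa* at -0.69 with adjusted p = 0.0273 (21.6% of all tested genes called), and without 4502, 4503 and 4508 together at -0.50 with adjusted p = 0.0144 (24.1% called).

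Within a library, the class II genes fell into pairs that kept their proportion and pairs that did not. These ratios were chosen after the values had been seen and are given without a test. The ratio of *H2-Aa* to *H2-Eb1* CPM stayed between 0.844 and 1.10 in all 12 libraries, and that of *Cd74* to *H2-Ab1* between 1.60 and 2.09. Across the same libraries the level of each of the 4 genes ranged far more widely, *H2-Aa* from 30.1 to 200.01 CPM.

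The alpha and beta chains of I-A did not keep their proportion. *H2-Aa* to *H2-Ab1* was 1.02, 1.02, 0.979 and 1.17 in WT control and 1.09, 4.07, 1.05 and 1.15 in *Mtmr2* KO. It was 1.89, 1.57, 1.96 and 3.31 with niacin. Thus 7 libraries lay close to 1, library 4503 among them although its level of both genes was the lowest of all, and library 4502 and the 4 niacin libraries stood above them. The same 5 libraries were those with the GC shift of 0.32 to 0.82, and 4502 and 4508 were the highest in the ratio. The longest transcript of *H2-Aa* has 46.51% GC, that of *H2-Ab1* 57.34%, *Cd74* 56.6% and *H2-Eb1* 51.83%. After each library was corrected for GC content and length across all genes, the ratio was 4.15 in 4502 and 1.67, 1.52, 1.95 and 3.23 with niacin, against 0.986 to 1.22 in the others.

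The chains of DM also changed in proportion. *H2-DMb1* to *H2-DMa* was 1.02 to 1.18 in WT control, 0.943 to 1.36 in *Mtmr2* KO with 4502 the highest, and 1.45 to 2.22 with niacin. The niacin libraries lay above all the others. After the correction for GC content and length the 4 niacin ratios were 1.66, 1.43, 1.62 and 2.04, and library 4502 was at 1.14. In this pair the niacin libraries therefore stood above 4502 with and without the correction, unlike *H2-Aa* to *H2-Ab1*. *Ciita* to *H2-Ab1* ranged from 0.0383 to 0.0876 without a group standing apart.

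**Figure D4:**
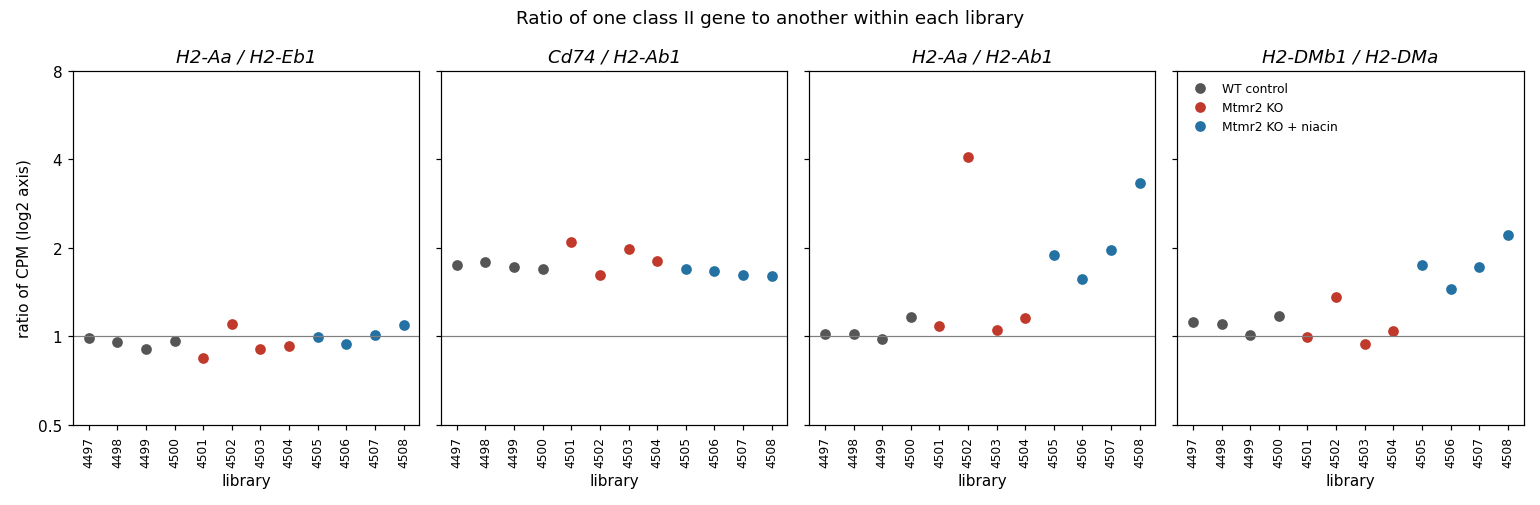
Ratio of CPM of one class II gene to another in each of the 12 libraries (log2 axis), in 4 panels, with points coloured by group. *H2-Aa* to *H2-Eb1* (0.844 to 1.10) and *Cd74* to *H2-Ab1* (1.60 to 2.09) are nearly flat, *H2-Aa* to *H2-Ab1* reaches 4.07 in replicate 4502 and 3.31 in 4508, and *H2-DMb1* to *H2-DMa* is highest in the niacin libraries (1.45 to 2.22).

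Of the other genes of the pathway, 33 symbols were listed, 30 were found and 26 passed the filter. None was called by edgeR in any of the 3 comparisons. For *Mtmr2* KO against WT control the median log2 change was 0.05 against 0.03 over all tested genes, with 3 genes higher and 2 lower at an unadjusted p under 0.05, where 17.2% of all tested genes passed. For niacin against *Mtmr2* KO it was 0.03 against -0.04, with again 3 higher and 2 lower against 20.1% of all tested genes. For niacin against WT control it was 0.21 against 0.02, with 6 higher and 0 lower. Of all 17257 tested genes 4254 (24.7%) passed there in either direction, 2512 of them lower and the rest higher. Groups did not overlap there for 8 of the 26 genes higher and 4 lower, against 14.9% and 16.6% of all tested genes. DESeq2 on the 2 groups called 9 higher and 2 lower in that comparison, against 16.6% and 20.4% of all genes. Without replicate 4503 the medians were 0.07 for *Mtmr2* KO against WT control and 0.02 for niacin against *Mtmr2* KO, and edgeR again called none.

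Several class II genes were barely present. *H2-Eb2*, a second I-E beta chain gene, had 3 counts over 12 libraries, and *H2-Oa*, a chain of the DM inhibitor DO, had 19. *H2-Ob*, the other DO chain, was at 0.481 to 1.67 CPM. *Ifng*, the cytokine that most strongly induces CIITA, had 44 counts in all.

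*Ctss*, the cathepsin that makes the last cuts in the invariant chain, was at 15.8 to 27.3 CPM in WT control, 20.8 to 62.1 in *Mtmr2* KO with 4502 the highest, and 24.6 to 41.2 with niacin. Its log2 difference was 0.74 (SE 0.30, edgeR adjusted p = 0.222) for *Mtmr2* KO against WT control, and 0.83 without 4503. The myeloid factors *Irf8* and *Spi1* were at 7.40 to 12.3 and 9.01 to 14.3 CPM, with log2 differences between -0.26 and -0.03 over the 3 comparisons. Without 4503 the differences that involve *Mtmr2* KO were -0.03 and -0.23 for *Irf8* and 0.06 and -0.27 for *Spi1*. *Rfx5*, a subunit of the RFX complex that binds the X box, and *Ctsb*, an endosomal cathepsin, are named after their values were seen. For niacin against *Mtmr2* KO they were the only 2 of the 26 genes whose groups did not overlap, against 7.01% of all tested genes, with log2 differences of 0.53 and 0.54 and edgeR adjusted p = 0.0775 and 0.0953. Without 4503 they were at 0.53 and 0.43 with edgeR adjusted p = 0.136 and 0.210.

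The MHC class I pathway, which shows peptides from inside the cell to CD8+ T cells, gave 0 calls by edgeR among its 14 genes in each comparison. At an unadjusted p under 0.05, 4 genes were lower in *Mtmr2* KO than in WT control, 5 higher with niacin than in *Mtmr2* KO, and 1 higher and 3 lower with niacin than in WT control. Of all tested genes 7.9% were lower in the first. In the other 2 comparisons 20.1% and 24.7% of all tested genes passed in either direction, and 12.1% and 14.6% of all tested genes passed lower. The 5 genes were all higher, so the share in either direction is larger than the share that matches them. Of all 17257 tested genes 3472 passed in that comparison, 2089 of them lower and the rest higher. Medians of the log2 change were -0.29, 0.28 and -0.03, against 0.03, -0.04 and 0.02 over all tested genes. Without 4503 the first 2 medians were -0.26 and 0.24. *H2-D1*, a class I heavy chain, was at 359 to 443 CPM in WT control, 134 to 322 in *Mtmr2* KO and 189 to 305 with niacin, with a log2 difference of -0.84 (SE 0.23, edgeR adjusted p = 0.108) for *Mtmr2* KO against WT control. *H2-K1*, another heavy chain, was at -0.71 (SE 0.21, edgeR adjusted p = 0.128) in the same comparison. *B2m*, the light chain that pairs with both, was at 0.02 (SE 0.28). Without 4503 these were -0.89 for *H2-D1*, -0.65 for *H2-K1* and 0.20 for *B2m*. Library 4502 had the highest *B2m* of all, 671 CPM, with the lowest *H2-D1* and *H2-K1*, 134 and 145 CPM. *Nlrc5*, the class I counterpart of *Ciita*, was at 0.625 to 4.80 CPM with log2 differences of -0.27, 0.54 and 0.27, and of -0.35 and 0.62 without 4503 in the first 2 comparisons.

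Markers of the cells that could carry class II were read beside the members. The 13 macrophage markers summed to 621 to 738 CPM in WT control, 581 to 1154 in *Mtmr2* KO and 719 to 1090.0 with niacin, and none of them was at 0 in any library. edgeR called 0 of the 13 in each comparison, beside 0.267%, 1.43% and 0% of all tested genes. Medians of their log2 change were 0.26, 0.18 and 0.32, against 0.03, -0.04 and 0.02 over all tested genes. For niacin against WT control 12 of the 13 had higher means. DESeq2 on these 2 groups called 6 higher and 1 lower, beside 16.6% and 20.4% of all genes. It called 0 of the 13 in the first 2 comparisons. The 9 dendritic cell markers summed to 37.5 to 46.5, 31.2 to 56.9 and 36.8 to 49.7 CPM. Of these, 4 were under 1 CPM in all libraries and 2 were at 0 in at least 1 library. The highest in WT control were *Zbtb46* and *Clec10a*, with means of 17.6 and 17.2 CPM. B cell markers summed to no more than 3.90 CPM and T cell markers to no more than 3.14 CPM in any library, with 6 of 8 markers under 1 CPM in all libraries on each list. The defining B cell gene *Ms4a1* was at 0 in at least 1 library.

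In library 4503 the macrophage sum was 853 CPM, above all WT control libraries, while *H2-Aa*, *H2-Ab1*, *H2-Eb1*, *Cd74* and *Ciita* were at their lowest of the 12. *Cx3cr1*, the fractalkine receptor of macrophages inside the nerve fascicles, was at 1.44 CPM there against 12.6 to 14.8 in WT control, and *Cd163*, a scavenger receptor of tissue macrophages, was at 190 against 69.2 to 94.8 CPM. Also below every WT control library in 4503 were *Adgre1* at 21.3, *Csf1r* at 111, *Aif1* at 1.67, *Itgam* at 11.4 and *Fcgr1* at 2.56 CPM, as was the sum of 6 markers shared by all leukocytes, 78.3 against 90.3 to 113 CPM. Beside *Cd163*, 4503 was above every WT control library for *C1qa* at 109, *C1qb* at 101 and *C1qc* at 87.6 CPM. The same held for *Mrc1* at 132 and *Lyve1* at 67.9 CPM. In library 4502 the macrophage sum was the highest, 1154 CPM, with *Adgre1*, which encodes F4/80, at 64.1 against 25.2 to 31.4 CPM in WT control, and *Cx3cr1* was at 6.77 CPM. Libraries 4502 and 4508, the 2 highest for *H2-Aa* and *H2-Eb1*, had macrophage sums of 1154 and 941.5 CPM, both above WT control. The same 2 libraries were low for *H2-Ab1*, at 45.1 and 60.35 CPM, and for *Cd74*, at 72.7 and 96.8 CPM. Library 4505 had a macrophage sum of 1090 CPM, above that of 4508, with *H2-Aa* at 131 CPM. Neutrophil markers summed to 1.68 to 15.4 CPM in *Mtmr2* KO against 0.799 to 1.06 in WT control. With niacin their sum was 0.637 to 9.565 CPM, with 4508 the highest and the others at 0.637, 0.910 and 0.914. Skeletal muscle markers summed to 2778 and 2611 CPM in libraries 4506 and 4507. The part of these cells in the class II values was not tested.

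**Figure D5:**
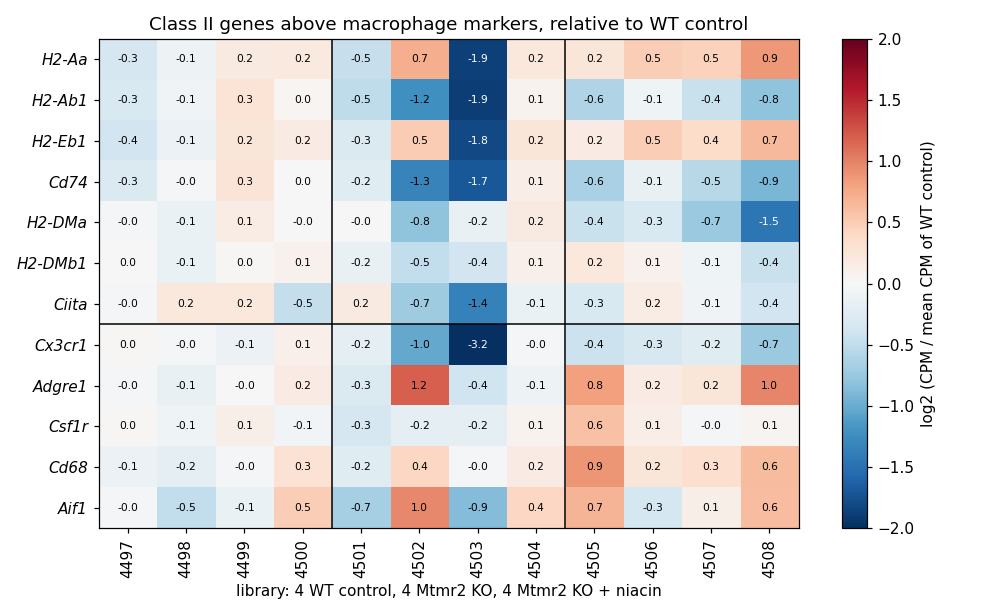
Log2 of CPM over the mean CPM of WT control for the 7 class II genes and 5 macrophage markers (rows) in each of the 12 libraries (columns), with colours that saturate at 2 in either direction and lines between the groups. In replicate 4503 the 3 chains and *Cd74* are at -1.69 to -1.89 and *Cx3cr1* at -3.25, while *Csf1r* is at -0.18, and in 4502 *H2-Aa* is at 0.73 with *H2-Ab1* at -1.23. Macrophage markers that are above WT control in 4503, such as *Cd163*, are not among the 5 shown.

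The genes most like the class II genes were sought by Pearson r between log2 CPM and the mean log2 CPM of the 7 members over the 12 libraries. *Cx3cr1* ranked second among the tested genes with a symbol that are not members, with r = 0.94, behind *Tmem40* with r = 0.95. Symbols that begin with a number and a hyphen were left out of the ranking. They were followed by *Il21r*, *Stard5*, *Panct2*, *Prmt2*, *Shox2*, *Mmd2*, *Trp53inp2* and *P4ha3*, with r of 0.91 to 0.94. With group means removed, r was 0.895 to 0.947 for these 10 genes. *Cx3cr1* averaged 13.7 CPM in WT control, 8.38 in *Mtmr2* KO and 10.2 with niacin. The 12 points share the extreme library 4503 and the libraries with a GC shift, and the ranking is a description. Among the members themselves, r with that mean was 0.96 for *H2-Ab1*, 0.91 for *Cd74*, 0.86 for *Ciita*, 0.66 to 0.74 for *H2-Aa*, *H2-DMb1* and *H2-Eb1*, and 0.26 for *H2-DMa*.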

How the data were processed

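The authors sequenced polyA RNA of mouse sciatic nerves (CASAVA 1.9 per the labels), mapped reads to GRCm38 with STAR, and deposited raw whole-number counts per gene. For the counting program, annotation release and strand setting the sources used here say nothing. The authors' DESeq2 tables (fold changes and p-values) were used only for gene symbols. Here edgeR 4.0.16 in R 4.3.3 (TMM, filterByExpr, quasi-likelihood test) was fitted over all 12 libraries with 3 groups and no covariate. A call is an adjusted p (Benjamini-Hochberg, over the 17257 tested genes) under 0.05. DESeq2 1.42.0, limma 3.58.1 and other settings were alternatives. Log2 CPM used a prior count of 2. Coordinates are from the GENCODE annotation of GRCm38 and promoters from RefSeq. The fit was tested on simulated counts with known changes. These had the same spread beyond counting noise in all groups and no GC shift, unlike the libraries here. Libraries of a group differed beyond counting noise (chi-square per degree of freedom 11.2 or more over 18 pairs). The members and gene lists were chosen with earlier results of these data known. The text names all members, low-abundance class II genes, a few regulators and class I genes, list-leading markers and the 10 genes most like the members, with exceptions stated. The correction for GC content and length (splines with 5 degrees of freedom, 99.3% of tested genes) and the fit without 3 libraries were chosen after seeing the data. Values of a few named genes are not reported here.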

Additional observations from a re-analysis of the deposited data

How the results depend on the processing

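No member was called in *Mtmr2* KO versus WT control under any setting tried. For niacin versus *Mtmr2* KO, 1 member was called by limma-voom and 1 without 3 libraries (4502, 4503 and 4508, chosen after seeing the data), and 0 to 1 with single libraries left out. For niacin versus WT control, 5 were called by DESeq2 and 5 by edgeR on the 2 groups, 2 by limma-voom, 1 without the 3 libraries, and 0 to 1 with single libraries left out. Replicate 4502 decided each of these leave-one-out calls. Other class II genes called, against 0, were 1 in *Mtmr2* KO versus WT control by DESeq2 over 12 libraries. In niacin versus *Mtmr2* KO they were 2 by DESeq2 over 12 libraries, 1 by limma-voom, 1 after GC and length correction, 3 without the 3 libraries and 0 to 4 with single libraries left out. Those fits called 6.22% (DESeq2), 11.6% (limma-voom) and 9.81% (without the 3 libraries) of all genes. The fit with GC and length correction called 465 of 17142 genes. The fit without 4502, where the 4 were called, called 23.6% of all tested genes. In niacin versus WT control the other class II genes called were 11 by DESeq2 on 2 groups, 11 by limma-voom, 10 by edgeR on 2 groups, 7 without the 3 libraries and 0 to 6 with single libraries left out. Class I genes called, against 0, were 2 and 1 by DESeq2 over 12 libraries and on 2 groups in *Mtmr2* KO versus WT control, and 0 to 2 with single libraries left out. Those DESeq2 fits called 3.71% and 2.39% of all genes. The fit without 4501, where the 2 were called, called 457 genes in all. In niacin versus *Mtmr2* KO the class I genes called were 2 by DESeq2 over 12 libraries, 3 by limma-voom, 1 without the count filter, 1 after GC and length correction, 2 without the 3 libraries and 0 to 4 with single libraries left out. The fit without the count filter called 573 of 33882 genes, and the shares of the others are given above. In niacin versus WT control the class I genes called were 7, 7 and 6 by DESeq2 on 2 groups, limma-voom and edgeR on 2 groups, 4 without the 3 libraries and 0 to 4 with single libraries left out. In niacin versus WT control DESeq2 on 2 groups called 36.9% of all genes, limma-voom 42.4%, edgeR on 2 groups 33.9%, the fit without the 3 libraries 24.1% and that without 4502 21.6%. The cause was not tested. Without the 3 libraries the log2 change turned sign for *H2-Eb1* (0.0066), *H2-DMa* (0.0888) and *Ciita* (0.0325) in *Mtmr2* KO versus WT control, for *H2-Ab1* (-0.19), *Cd74* (-0.40) and *Ciita* (-0.10) in niacin versus *Mtmr2* KO, and for *H2-DMb1* (0.0656) in niacin versus WT control. limma-voom turned *Cd74* in niacin versus *Mtmr2* KO (-0.22), and the GC and length correction turned *Ciita* in niacin versus WT control (0.22). With single libraries left out, values crossed 0 for *H2-Aa* (-0.47 to 0.24), *H2-Eb1* (-0.39 to 0.19) and *H2-DMa* (-0.285 to 0.0126) in *Mtmr2* KO versus WT control, *H2-Ab1* (-0.0022 to 0.64) and *Cd74* (-0.18 to 0.41) in niacin versus *Mtmr2* KO, and *H2-DMb1* (-0.14 to 0.074) in niacin versus WT control. The other member changes kept their direction. No paired analysis was possible because the labels give no pairing of libraries between groups.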
